A study of Oryza sativa with 4 samples.

Results

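The chilling-sensitive rice line 9311, also labelled YD6, was compared after 36 h of chilling with the same line before chilling (0 h). Members of the comparison were the identifiers beginning with BGIOSGA that reached 1 FPKM in either 9311 library, and they numbered 23563 of the 40745 BGIOSGA identifiers and of the 88509 identifiers in the table. FPKM is a read number scaled to gene length and to the library total, so it can be compared between genes. The limit fell within a continuum, with 285 members between 1.0 and 1.1 FPKM in the higher library and 254 other BGIOSGA identifiers between 0.9 and 1.0. Of the other BGIOSGA identifiers, 5406 were above 0 but under 1 FPKM in both 9311 libraries and 11776 were listed at 0 in both.

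The series profiled whole seedlings at the 3-leaf stage by RNA sequencing. The groups are 9311 after 36 h of chilling, 9311 before chilling, DC90 after 36 h of chilling and DC90 before chilling. DC90 is labelled as a substitution line that tolerates chilling, and such a line carries donor chromosome segments in the background of its recurrent parent, here 9311. RNA of 3 replicates per line and time was mixed in equal amounts, so each group is 1 library. No spread between replicates exists, no test between the times was possible, and "higher" and "lower" describe these libraries alone. No unchilled seedlings were sampled at 36 h, and 36 h is not a whole number of days, so chilling, seedling age and time of day cannot be told apart. In whole seedlings, fewer cells of a type and less RNA per cell cannot be told apart either.

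Rice is a warm-climate cereal, and its seedlings are damaged by temperatures above freezing that many temperate plants tolerate. Plants sense cold through membrane and calcium signals, and transcription factors then switch on protective genes, while photosynthesis and growth slow. Indica rice, the group to which 9311 belongs, is known as the more chilling-sensitive of the main cultivated groups. The identifiers were not paired with gene names, positions or sequences in the sources used here: 0 of the 88509 were found in the reference gene table. Genes are therefore described by level, coding length, identifier order and behaviour in DC90, and the tissue was not checked against marker genes.

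Library totals were recovered from the step sizes of the FPKM values. They were 10901043 reads at 36 h and 11800685 at 0 h in 9311, and 10580163 at 36 h and 11709642 at 0 h in DC90. These totals are the ones that scale the FPKM values and need not equal the number of reads sequenced. A member had a median of 205 reads in the higher of its 9311 libraries, and 91.2% had at least 20. The median coding length of a member was 1032 bases. The median member stood at 12.4 FPKM at 36 h and at 12.6 FPKM at 0 h.

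After 36 h of chilling, somewhat more members of the 9311 comparison were lower than higher, but large differences were more often upward. A member was called where the log2 of (FPKM + 1) at 36 h over (FPKM + 1) at 0 h was 1 or more in size, which is a 2-fold difference on that scale and understates the difference of low values. By this rule 3788 members, or 16.1%, were higher at 36 h and 4293, or 18.2%, were lower. Over all 26446 identifiers that reached 1 FPKM in 9311, with the EPlOING identifiers included, 19.0% were higher and 18.9% lower. The members made up 23563 of these 26446 identifiers, so their shares were bound to lie near those over all identifiers. Both shares of the members were lower, as the other 2883, the EPlOING identifiers, were 43.3% higher and 24.1% lower.

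The balance turned with the size of the difference. At least 4-fold, 1069 members were higher and 995 lower, where 5.74% of all identifiers were higher and 4.35% lower; with a median-of-ratios factor these counts were 1011 and 1054, so the direction at this size depended on the scaling. At 8-fold and beyond, the excess of higher members held under both other scalings. At least 8-fold, 378 members were higher and 243 lower, beside 1.95% and 1.02% of all identifiers. At least 16-fold, 159 members were higher and 64 lower, beside 0.76% and 0.265% of all identifiers. Past 32-fold there were 54 higher and 16 lower members, beside 0.261% and 0.0681% of all identifiers. The 99th percentile of the members' log2 ratio was 3.53 and the 1st percentile was -3.02, whereas the 95th and 5th percentiles lay at 1.91 and -1.89. The asymmetry was therefore in the outermost percentiles, and the middle of the distribution was nearly symmetric around a median of -0.06. A log2 ratio within 0.5 of 0 was found for 8828 members, or 37.5%. The 2-fold limit divided a continuum, with 1055 members between 1.0 and 1.1 in size and 1082 between 0.9 and 1.0.

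**Figure D1:**
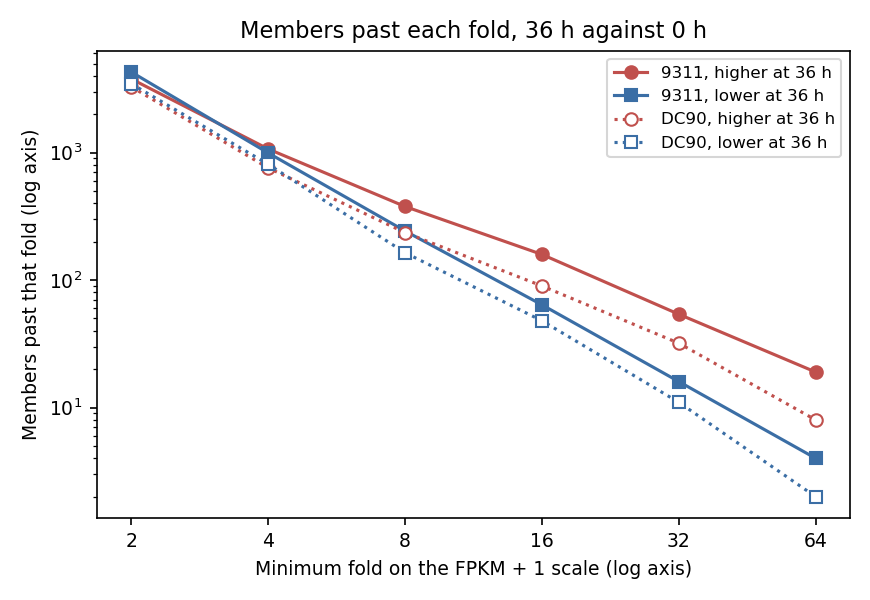
Number of members (log axis) past each minimum fold on the FPKM + 1 scale (log axis), higher in red and lower in blue, in 9311 (filled, solid) and for the same identifiers in DC90 (open, dotted), with 1 library per line and time. In 9311 the lower members outnumber the higher ones at 2-fold, with 4293 against 3788, and the higher outnumber the lower at 16-fold, with 159 against 64.

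The members higher by 16-fold or more had a median level of 81.3 FPKM at 36 h and 1.80 FPKM at 0 h in 9311. The 64 members lower by 16-fold or more stood at a median of 1.54 FPKM at 36 h and 67.1 FPKM at 0 h. The fold limit itself fixes a high level at 1 time and a low one at the other, so these 9311 levels only describe the sets. In the DC90 libraries, which did not enter that choice, the higher set had medians of 51.0 FPKM at 36 h and 2.14 FPKM at 0 h, and the lower set had 2.73 FPKM at 36 h and 64.9 FPKM at 0 h. The sets held shorter genes, with median coding lengths of 714 bases for the higher and 610.5 bases for the lower set, against 1083 bases for members that were not called.

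More of the most abundant transcripts were lower than higher after chilling. Members were sorted into classes by their mean FPKM over all 4 libraries, which favours neither direction. Of the 94 members with a mean of 1000 FPKM or more, 49 were lower at 36 h by the 2-fold rule, 9 were higher and 36 were not called. The lower ones made up 52.1% of this class, where 18.2% of all members were lower. The log2 ratios in the class ran from -3.40 to 3.74 around a median of -1.07, and 74 of the 94 were below 0. Each of these members had at least 1528 reads in both 9311 libraries, so the counting error of each ratio is small. The share stayed at 52.1% when the libraries were rescaled to equal FPKM sums or by the median of ratios. It was 49.0% when the class was set by the DC90 libraries alone, which hold no 9311 value.

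Below that class the balance differed by level. From 100 to 1000 FPKM, 18.1% of 1890 members were higher and 16.7% lower, and with a median-of-ratios factor 17.4% were higher and 18.0% lower. From 20 to 100 FPKM, 19.3% of 7355 members were higher and 14.4% lower, which made this the class with the largest excess of higher members under each of the 3 scalings. From 5 to 20 FPKM, 14.3% of 7677 were higher and 18.8% lower, and from 1 to 5 FPKM, 13.1% of 5430 were higher and 21.6% lower. Lower members thus outnumbered higher ones at both ends of the expression range, and higher ones outnumbered lower ones from 20 to 100 FPKM. In the lowest classes the added 1 and the low read numbers weigh most: members from 1 to 5 FPKM had a median of 39.5 reads in the higher library.

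**Figure D2:**
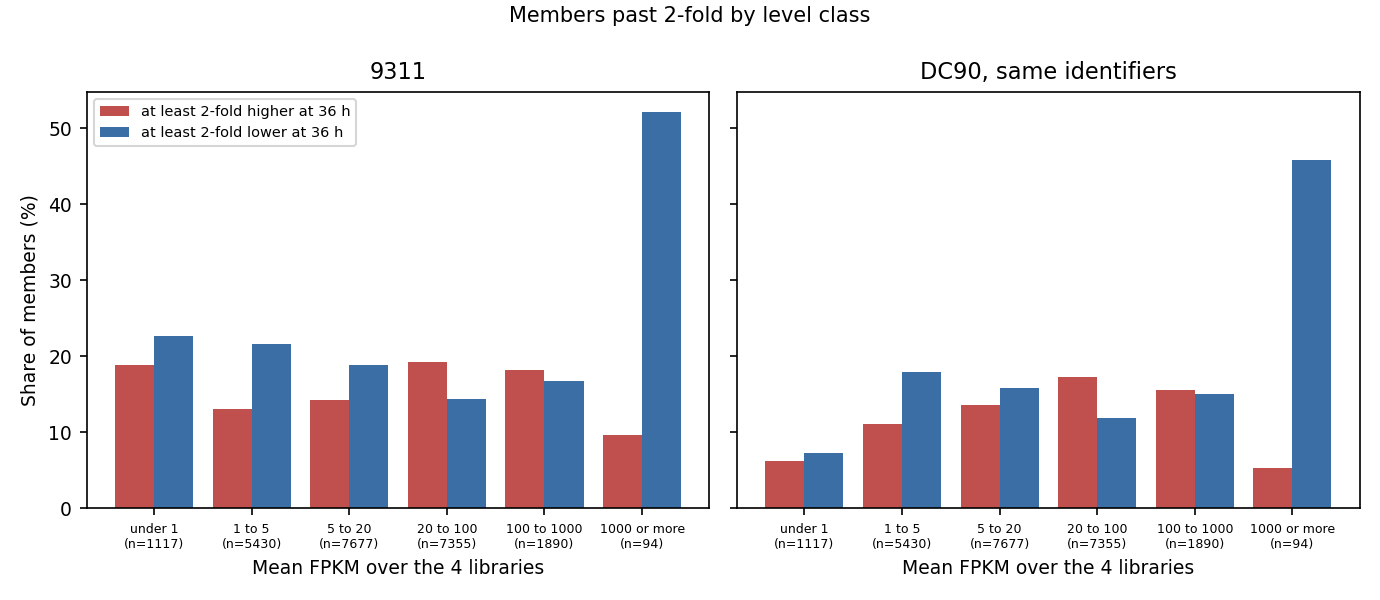
Share of members (%) at least 2-fold higher (red) and lower (blue) at 36 h, by mean FPKM over the 4 libraries, in 9311 on the left and for the same identifiers in DC90 on the right, with the number of members under each class. The class of 1000 FPKM or more has the tallest bars for lower members, at 52.1% in 9311 and 45.7% in DC90.

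In DC90, 43 of these 94 members were lower, 5 were higher and 46 were not called, with a median log2 ratio of -0.78. Over all identifiers that reached 1 FPKM in DC90, 15.9% were lower and 17.9% higher. The 9311 comparison does not use the DC90 libraries, but the means that set the class include them. Of the 49 members lower in 9311, 41 were also called lower in DC90. The median level in the class was 1043 FPKM at 36 h and 1911 FPKM at 0 h in 9311, and it was 1130 FPKM at 36 h and 1830 FPKM at 0 h in DC90. The log2 ratio was below that of DC90 in 53 of the 94. With 1 library per line and time, the difference between the lines was not tested.

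Coding length divided the abundant transcripts. Of the 40 members of this class with 600 to 2000 bases, 29 were called lower at 36 h and 0 were called higher. Their median log2 ratio was -1.47. Of the 53 under 600 bases, 19 were lower and 9 were higher, with a median of -0.43. All 9 abundant members called higher after chilling therefore had coding lengths under 600 bases. In DC90, 62.5% of the longer and 32.1% of the shorter ones were lower.

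The members with the 2 largest gains and the 2 largest losses of FPKM in 9311 follow, beginning with the largest gain. They were chosen by that size and direction, so they are examples and add no support to the patterns above. BGIOSGA037854, with a coding length of 486 bases, stood at 10295 FPKM at 36 h and 3089 FPKM at 0 h in 9311, and at 9670 FPKM at 36 h and 4521 FPKM at 0 h in DC90. It was the most abundant member at 36 h and the 19th at 0 h. The ratio in 9311 was 3.33, with a 95% counting interval of 3.28 to 3.39, and in DC90 it was 2.14, with an interval of 2.11 to 2.17. The intervals are exact Clopper-Pearson intervals on the reads of 2 libraries and cover counting error only, since PCR reads are not independent molecules and the spread between pools is unknown.

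BGIOSGA013292, of 420 bases, had the second largest gain. It stood at 9198 FPKM at 36 h and 3618 FPKM at 0 h in 9311, and at 8338 FPKM at 36 h and 4305 FPKM at 0 h in DC90. Its ratio was 2.54 in 9311, with an interval of 2.50 to 2.59, and 1.94 in DC90, with an interval of 1.90 to 1.97. Both genes were higher at 36 h in either line. On the log2(FPKM + 1) scale BGIOSGA013292 passed the 2-fold rule in 9311, at 1.35, and missed it in DC90, at 0.95. Equal FPKM sums shift DC90 at 36 h by 0.11 on the log2 scale, which takes this gene past the rule there. Its call in DC90 thus depended on the scaling.

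BGIOSGA003922, of 786 bases, lost the most. It stood at 903 FPKM at 36 h and 8374 FPKM at 0 h in 9311, and at 1251 FPKM at 36 h and 8547 FPKM at 0 h in DC90. It was the third most abundant member at 0 h and the 87th at 36 h in 9311. The level at 36 h was 9.27-fold lower in 9311, with a counting interval of 9.06 to 9.49, and 6.83-fold lower in DC90, with an interval of 6.70 to 6.98.

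BGIOSGA033513, of 1401 bases, stood at 694 FPKM at 36 h and 7354 FPKM at 0 h in 9311, and at 874 FPKM at 36 h and 6868 FPKM at 0 h in DC90. It took rank 160 at 36 h and rank 5 at 0 h in 9311. It was 10.6-fold lower in 9311, with an interval of 10.4 to 10.8, and 7.85-fold lower in DC90, with an interval of 7.71 to 7.999. Neither of these 2 genes stood above 1251 FPKM in a chilled library or below 6868 FPKM in a library from before chilling.

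**Figure D3:**
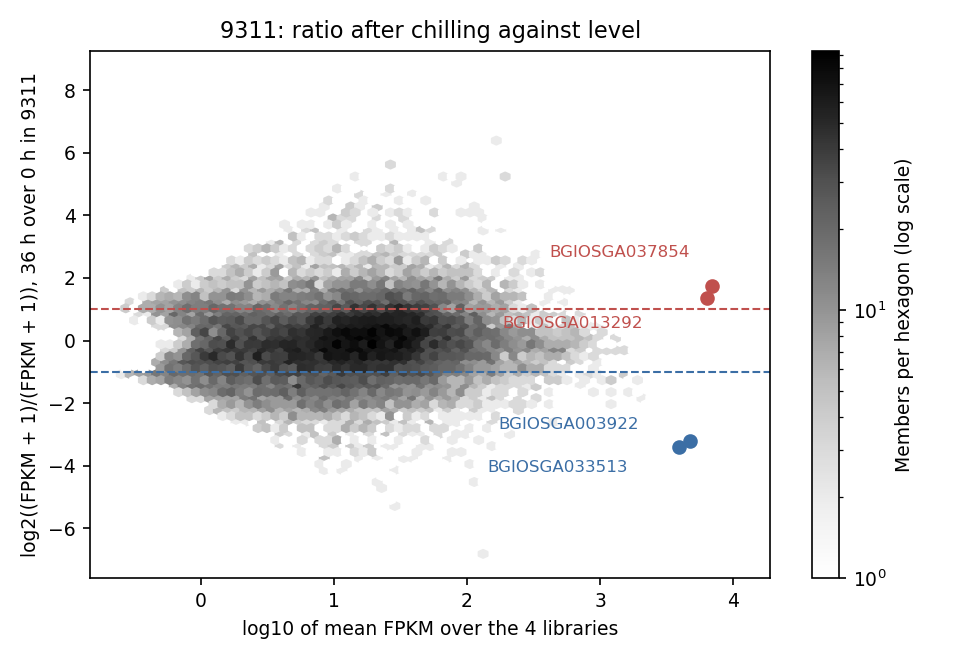
log2((FPKM + 1)/(FPKM + 1)) of 36 h over 0 h in 9311 against log10 of the mean FPKM over the 4 libraries, for 23563 members (grey hexagons, darker for more members on a log scale). Dashed lines mark the 2-fold rule, and the coloured points are the 2 members with the largest gain (red) and the 2 with the largest loss (blue) of FPKM.

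The transcript pool was spread over more genes after chilling. The 100 most abundant members held 16.6% of the members' summed FPKM at 36 h and 22.0% at 0 h, and the 1000 most abundant held 47.9% at 36 h and 53.0% at 0 h. Only 49 members stood in the top 100 at both times. Of the top 100 at 0 h, 62 were called lower and 2 higher, and those 100 together held 12.4% of the sum at 36 h. Of the top 100 at 36 h, 33 were called higher and 17 lower, and those 100 had held 15.7% of the sum at 0 h. A list chosen at the top of 1 library is bound to stand lower in the other to some degree, so these counts are given as a description. In DC90 the top 100 of the same members held 16.6% at 36 h and 22.4% at 0 h, and 60 of them were shared between the times.

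The called members exchanged a large part of the pool. Members called higher held 28.9% of the summed FPKM at 36 h and 7.35% at 0 h. Members called lower held 9.80% at 36 h and 31.6% at 0 h. Members not called held 61.3% at 36 h and 61.1% at 0 h. The call itself fixes these directions, and the size of the shares is what they add. Losses were carried by fewer genes than gains: the 100 largest made up 50.7% of all the FPKM lost by members called lower, and the 100 largest gains 37.8% of all the FPKM gained by members called higher. The 10 largest made up similar shares, at 15.0% of the loss and 14.9% of the gain.

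Movement between level classes followed the same outline. Classes of FPKM at each time, with limits at 1, 5, 20, 100 and 1000, were the same at both times for 12903 members, or 54.8%. At 36 h 66 members were at 1000 FPKM or more, against 108 at 0 h, and 38 were there at both times. Nearly all of the other 70 members of the top class at 0 h stood between 100 and 1000 FPKM at 36 h, 69 in number. The class from 100 to 1000 FPKM held 2063 members at 36 h and 1792 at 0 h, and 665 of those at 36 h had been between 20 and 100 FPKM. Moves of at least 2 classes were made upward by 533 members and downward by 467. The upward ones included 59 members that stood between 20 and 100 FPKM at 36 h and under 1 FPKM at 0 h.

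**Figure D4:**
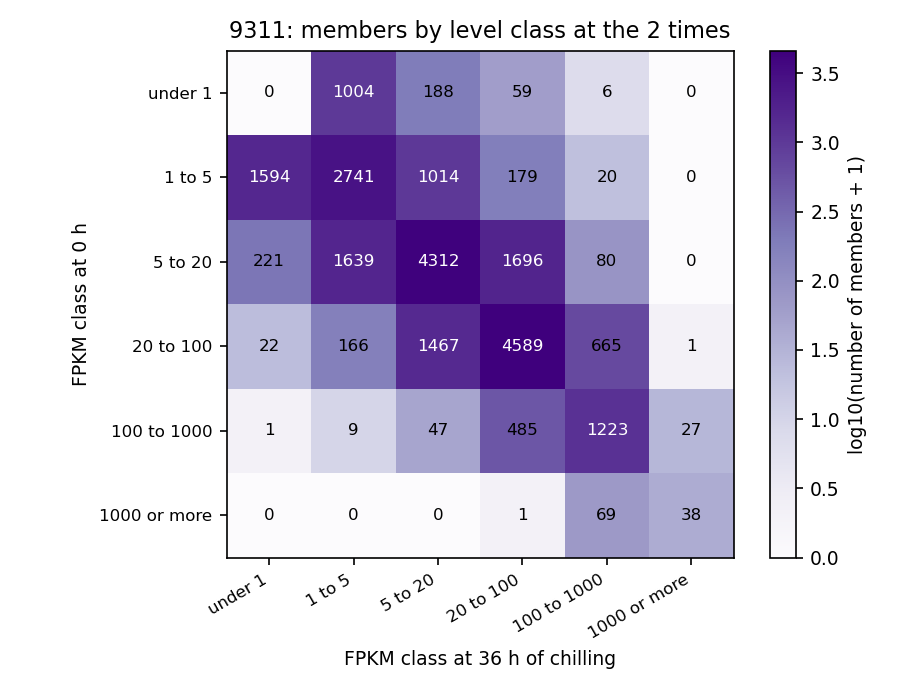
Number of members in each FPKM class at 36 h (columns) and at 0 h (rows) in 9311; colour shows log10(number + 1), and the cell under 1 FPKM at both times is empty by the choice of members. Of the 108 members at 1000 FPKM or more at 0 h, 38 remain in that class at 36 h and 69 are between 100 and 1000 FPKM.

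From 20 to 100 FPKM, long transcripts were seldom lower after chilling. Among members with a mean of 20 to 100 FPKM, where levels are alike and reads are ample, 21.4% of the 398 members under 300 bases were lower and 18.8% were higher. Of the 1301 members from 300 to 600 bases 18.7% were lower, of the 2914 from 1000 to 2000 bases 13.7%, and of the 660 from 2000 to 3000 bases 8.33%. Of the 273 members of 3000 bases or more, 5.49% were lower, while 20.5% were higher. The share that was higher thus stayed between 18.0% and 20.5% over all length classes, while the lower share became smaller with each step in length, also under both other scalings. The median log2 ratio was 0.02 for the shortest class and 0.39 for the longest.

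The same members in DC90 showed a steeper form of this. There 20.6% of members under 300 bases and 1.10% of those of 3000 bases or more were lower, and 16.1% and 25.3% were higher. Over all members of the 9311 comparison, lower shares were 23.1% under 300 bases and 10.1% at 3000 bases or more, and higher shares were 20.5% and 12.6%. The fall of the lower share with length was not seen in each level class: from 100 to 1000 FPKM it was 16.2% under 600 bases and 18.6% for the 59 members of 2000 bases or more. The class of 1000 FPKM or more went the other way too, at 35.8% under 600 bases and 72.5% from 600 to 2000 bases. From 5 to 20 FPKM the lower share was 23.9% under 600 bases and 11.4% at 2000 bases or more. From 1 to 5 FPKM it went from 24.2% to 14.3% between these lengths, and under 1 FPKM from 24.5% to 17.0%. Below 5 FPKM, members of 2000 bases or more were still more often lower than higher. Their higher share was 9.08% from 1 to 5 FPKM and 10.5% under 1 FPKM. In DC90 the lower share from 100 to 1000 FPKM was 17.5% under 600 bases and 8.47% at 2000 bases or more. Read number rises with length at a given FPKM, with medians of 133.5 reads in the shortest and 1723 in the longest class from 20 to 100 FPKM, and the state of the RNA is not recorded in the files. The part of either in this pattern was not tested.

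**Figure D5:**
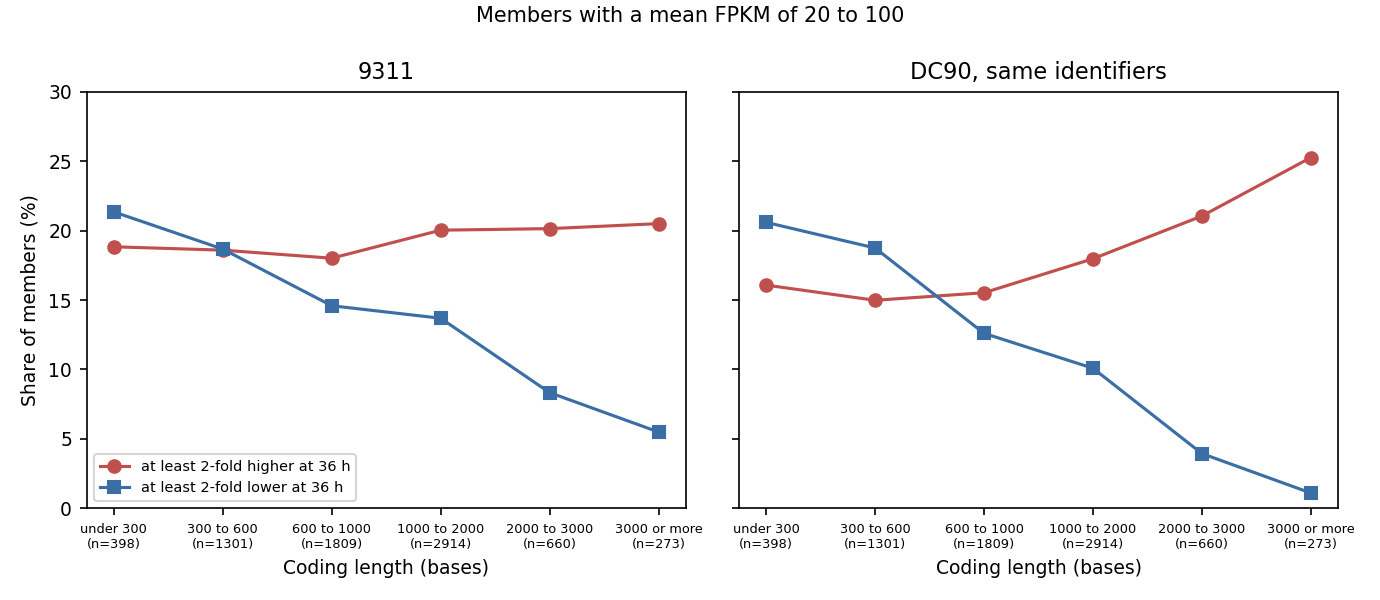
Share of members (%) with a mean FPKM of 20 to 100 that were at least 2-fold higher (red circles) and lower (blue squares) at 36 h, by coding length in bases, in 9311 on the left and for the same identifiers in DC90 on the right. In 9311 the lower share goes from 21.4% in the shortest class to 5.49% in the longest, and the higher share stays between 18.0% and 20.5%.

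Some members were detected at 1 time only. Listed at 0 at 0 h and at 1 FPKM or more at 36 h were 206 members, and 49 of these reached 5 FPKM. Listed at 0 at 36 h and at 1 FPKM or more at 0 h were 237 members, of which 25 had reached 5 FPKM. The 49 had a median of 8.67 FPKM and 41 reads at 36 h, with 111 FPKM in the highest, and 36 of them had at least 20 reads. With the 0 h library set at 3 reads, they were at least 14.8-fold higher at the median and at least 127-fold higher at the most. The 25 had a median of 9.50 FPKM at 0 h and were at least 13.2-fold lower at the median on the same floor of 3 reads per library.

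The median coding length was 315 bases for the 49 and 381 bases for the 25. A short gene has fewer reads at a given FPKM and is more easily listed at 0, and a length recovered from few reads can be too small, so part of this shortness follows from the choice of members. In DC90, 44 of the 49 were called higher and 22 of the 25 were called lower. Over all identifiers measured in DC90, 17.9% were higher and 15.9% lower. Of all members 4- to 8-fold higher in 9311, 84.4% were called higher in DC90, and of those 8- to 16-fold higher 97.3%. On the lower side these shares were 93.5% and 98.9%. Members of such sizes were thus mostly called in DC90, whether or not they were listed at 0 at 1 time. Of the 206 members at 1 FPKM or more, 95 were called higher in DC90, and of the 237, 115 were called lower. DC90 also had 0 at that time and at least 5 FPKM at the other for 9 of the 49 and 7 of the 25. The median level of the 49 in DC90 was 5.62 FPKM at 36 h and 0.15 FPKM at 0 h. Of the 49, 21 were also listed at 0 in DC90 before chilling, and so were 14 of the 25 in DC90 at 36 h.

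Members called in 9311 mostly differed in the same direction in DC90. The 9311 comparison and the DC90 comparison share no library. Of the members called higher in 9311, 66.3% were also called higher in DC90 and 96.4% had a DC90 log2 ratio above 0. Of the members called lower in 9311, 64.8% were called lower in DC90 and 97.2% had a ratio below 0. Seen from DC90, 76.4% of its 3286 higher members were higher in 9311 and 80.1% of its 3472 lower members were lower there. These DC90 calls are only those among the members, which were chosen by their level in 9311. More members were called in 9311, at 3788 higher and 4293 lower, which by itself makes the shares seen from DC90 larger.

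The larger the response class in 9311, the larger was the share of its members called in DC90. Of members 2- to 4-fold higher in 9311, 57.3% were called higher in DC90, with medians of 1.34 in 9311 and 1.10 in DC90 on the log2 scale. Of those 4- to 8-fold higher, 84.4% were called higher, with medians of 2.38 in 9311 and 1.86 in DC90. Of those 16-fold or more higher, 158 of 159 were called higher, with medians of 4.65 in 9311 and 3.92 in DC90. On the lower side the shares were 55.7% for 2- to 4-fold, 93.5% for 4- to 8-fold and 98.9% for 8- to 16-fold, and all 64 members beyond 16-fold were called lower in DC90. Classes chosen by their size in 9311 are bound to have smaller medians in another comparison, so the difference of the medians is not read as a difference between lines.

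Counts past a size do not depend on that choice in the same way, since both lines were counted by their own ratio over the same members. At least 8-fold, 378 members were higher in 9311 and 236 in DC90, and 243 were lower in 9311 and 164 in DC90. Over all identifiers measured in DC90, 1.39% were higher and 0.738% lower at that size. Over all identifiers measured in 9311 these shares were 1.95% and 1.02%. The share over all DC90 identifiers was not computed at 16-fold. At least 16-fold, 159 were higher in 9311 and 90 in DC90, and 64 were lower in 9311 and 48 in DC90. The SD of the members' log2 ratios was 1.22 in 9311 and 1.09 in DC90. Members had to reach 1 FPKM in 9311, which leaves out identifiers that did so in DC90 alone. At 2-fold this weighs most in the class under 1 FPKM, where 18.9% were higher in 9311 and 6.27% in DC90. That class held 0 members past 8-fold in 9311, and the weight of the filter on the counts at 8-fold and 16-fold was not tested. The difference between the lines was not tested.

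Neighbours in identifier number responded more alike than distant identifiers. Across 16050 pairs of members with consecutive numbers, Pearson's r between their log2 ratios in 9311 was 0.13, and Spearman's rho was 0.11. It was 0.05 at a distance of 2 numbers, 0.03 at 5 and -0.01 at 20. The pairs share both libraries and members recur in successive pairs, so these values describe the order only. The values for DC90 were 0.12 at a distance of 1 and -0.01 at 20. Among members with a mean of at least 20 FPKM, r was 0.16 at a distance of 1. Beside a higher member, 23.0% of the next members were higher, where 16.3% of all members in such pairs were. Beside a lower member, 24.8% were lower, where 17.7% of all were.

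Neighbours called the same way were more often alike in length. The coding lengths differed by at most 30 bases in 12.3% of the 1307 consecutive pairs called the same way and in 5.10% of all consecutive pairs. Near-identical copies can exchange reads in counting, so the single values of such pairs are uncertain. Unbroken runs of at least 5 consecutive numbers called the same way numbered 12, of which 7 were higher and 5 lower, and the longest had 6 members. They held 62 members, 47 of which were called the same way in DC90. Of all members called higher in 9311, 66.3% were also called higher in DC90, and of those called lower 64.8% were also lower. The runs differed widely in size. In the most extreme run of higher members, 6 in number, the median log2 ratio was 5.03 in 9311 and 4.10 in DC90. In the most extreme run of 5 lower members it was -4.94 in 9311 and -5.64 in DC90. The mildest higher run had a median of 1.25 in 9311, with 2 of 5 members called higher in DC90. The mildest lower run had -1.32, with 1 of 5 called lower in DC90. Called members were otherwise spread over the whole numbering: in 39 blocks of 1000 numbers with at least 100 members each, between 12.6% and 20.4% were higher and between 14.8% and 28.4% were lower. Chromosome positions were not used here.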

How the data were processed

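RNA of whole rice seedlings was pooled from 3 replicates per line and time before library preparation, per the labels' protocols. The authors deposited 1 table of FPKM values, and the submitters' processing notes name HTSeq 0.6.1. Aligner, build and annotation were not given in the sources used here. Sample titles gave each column its sample.

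Reads and lengths were recovered from the steps of the FPKM values: library totals are whole numbers that fit all 4 columns, and the smallest length up to 30000 bases that made all reads whole, within 1e-07 (widened in proportion above 10000 reads), was found for 34043 of 34043 identifiers above 0. These reads summed to between 97.6% and 97.7% of each total, since a factor shared by reads and length is lost. Of the BGIOSGA lengths, 98.8% could be divided by 3, so they are called coding lengths. The procedure was tested on simulated data. No count model was run, because each group is 1 library.

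Ratios are log2((FPKM + 1)/(FPKM + 1)), called at 1 in size with 1 FPKM in either library. Bounds against 0 use 3 reads per library. The rule for named identifiers took the 2 called members with the largest gain and the 2 with the largest loss of FPKM in 9311; the gene lists planned by description gave no value, since no identifier could be paired with a name. The members, lists and rules were chosen with earlier results of these data known. The level classes, length classes and neighbour distances, and the added alternatives on them, were set with the values in view. Alternatives were a pseudocount of 0.1, no filter, 5 FPKM, equal FPKM sums, a median-of-ratios factor, 20 reads and a 4-fold limit. Python 3.11.15, numpy 2.4.6, pandas 2.3.3 and scipy 1.17.1 were used.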

Additional observations from a re-analysis of the deposited data

Results flagged for a closer look

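In 9311 and DC90, 14 of the 23563 members passed the 2-fold rule in opposite directions. Of these, 8 were higher and 6 lower in 9311 at 36 h. The difference was not tested, as there is 1 library per line and time. Of the 14, 6 had at least 20 reads in some library.

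The EPlOING identifiers are not members. Of the 2883 that reached 1 FPKM in 9311, 1248, or 43.3%, were at least 2-fold higher at 36 h and 694, or 24.1%, were lower, where 19.0% of all identifiers were higher and 18.9% lower. Of the 322 that had 20 or more reads in a 9311 library, 121, or 37.6%, were at least 2-fold higher at 36 h and 48, or 14.9%, were lower. Over the 2883 the median recovered length was 70 bases, and the median read number in the higher library was 3. A factor shared by reads and length is lost in the recovery, so both can be too small. The 322 can therefore leave out some identifiers that had 20 reads.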

How the results depend on the processing

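No paired analysis was possible because each group is 1 library, and for the same reason no replicate could be left out. The called share of the members, 34.3%, became 41.4% with a pseudocount of 0.1, 27.9% with no filter, 35.9% with at least 5 FPKM, 43.6% with a pseudocount of 0.1 and no filter, and 8.76% at 4-fold. The 3788 higher and 4293 lower members became 5714 and 6903 with a pseudocount of 0.1 and no filter, and 1069 and 995 at 4-fold. Higher members made up 46.9% of the calls. That share was 49.1% with at least 5 FPKM, 45.3% with a pseudocount of 0.1 and no filter, 49.0% with equal FPKM sums, 44.4% with the median-of-ratios factor and 51.8% at 4-fold, so the more frequent direction changed at 4-fold. The median log2 ratio of -0.06 turned to 0.000504 with at least 5 FPKM. Unfiltered values with a pseudocount of 0.1 gave -0.075, equal FPKM sums gave -0.023 and -0.10 was found with the median-of-ratios factor. The median-of-ratios factor gave members called higher 28.0% of the summed FPKM at 36 h and 6.93% at 0 h, and members called lower 10.5% at 36 h and 33.0% at 0 h. The 4 named members kept their direction and their call under each scaling and pseudocount tried. Their log2 ratios moved past their counting intervals under both scalings by construction, since the factors shift 36 h by 0.04 and -0.05 on the log2 scale. Low read numbers limit the classes under 5 FPKM, and the unknown spread between pools limits all of them.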
